A study of Mus musculus with 9 samples.

Results

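The genes described here are those that build the extracellular matrix and the receptors that hold cells to it. They are every collagen chain (Col, a number, a, a number), every laminin chain (Lama, Lamb, Lamc) and every gene named Itga or Itgb followed by a number, letter or suffix, except Itgb1bp genes. Fn1, Sparc, Ccn1, Ccn2, Lum, Fbn1, Fbln2, Nid1, Nid2 and Hspg2 complete the set. The names matched 79 genes of the platform, and 42 of them gave a signal above background (detection p below 0.01) on at least 2 of the 9 arrays, among 9488 genes that did so in all. The tables used here name no probe for Fn1 or Fbn1, so these were not analysed.

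RNA of 9 mouse stem cell samples was measured on Illumina bead arrays with 25697 probes. Germ stem cells (GSC), of unipotent potency per the labels, came from 4 lines with 1 array each. Germ pluripotent stem cells (gPS), which the study's title presents as made from adult germline stem cells, came from 3 clonal lines sorted for GFP, with 1 array each. Embryonic stem cells (ESC) were run in duplicate, on 2 arrays, so their spread may be technical. The labels give no strain, age, transgene, culture medium, feeder layer or passage, and do not say from which GSC line each gPS line came. Each gPS line is a single clone, and the GFP reporter behind the sort is not described.

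The labelled cell types were checked against marker lists. The mean log2 level of 9 germ cell genes lay between 9.22 and 9.45 on the GSC arrays and between 4.62 and 4.87 on the gPS and ESC arrays. That of 11 pluripotency genes lay between 6.08 and 6.58 in GSC and between 9.80 and 10.6 in gPS and ESC. GSC 1 and GSC 3 resembled each other more closely (Pearson r = 0.9948 across genes, which are not independent) than the ESC duplicate did (0.9873), and were kept as separate lines as labelled. Between 38.4% and 46% of probes were detected per array, with all 4 GSC arrays above the gPS and ESC arrays. Precision is limited by the small number of arrays in each group.

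A basement membrane is a thin sheet of matrix on which cells rest. Laminins, trimers of an alpha, a beta and a gamma chain, polymerise at the cell surface, type IV collagen forms a second network, and nidogens and the proteoglycan perlecan link the networks. Fibrillar collagens instead form the fibres of connective tissue and are made mainly by fibroblasts and related cells. Integrins are dimers of an alpha and a beta subunit that bind matrix outside the cell and the actin cytoskeleton inside it. Mouse embryonic cells lay down laminin before implantation, and spermatogonial stem cells in the testis touch the basement membrane of the seminiferous tubule.

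Promoters of members whose levels are central below are shown first, each as the 250 bases before the RefSeq start site (GRCm38.p6). Hspg2 and Itga5 were higher in both pluripotent groups than in GSC, and Sparc and Fbln2 varied widely among GSC lines. Capitals mark the GC box, GGGCGG or its reverse complement CCGCCC, a motif common in promoters without a TATA box. The Hspg2 promoter (chr4:137468553-137468802, plus strand) holds 5 GC boxes. The Itga5 promoter (chr15:103366792-103367041, minus strand) holds 2, the Fbln2 promoter (chr6:91212514-91212763, plus strand) holds 1, and the Sparc promoter (chr11:55420081-55420330, minus strand) holds 0.
Hspg2: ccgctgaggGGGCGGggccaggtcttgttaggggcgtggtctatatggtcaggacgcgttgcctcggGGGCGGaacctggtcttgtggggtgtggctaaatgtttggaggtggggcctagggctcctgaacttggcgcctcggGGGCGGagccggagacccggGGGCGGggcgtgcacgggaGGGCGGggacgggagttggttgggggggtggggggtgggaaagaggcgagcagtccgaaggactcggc
Itga5: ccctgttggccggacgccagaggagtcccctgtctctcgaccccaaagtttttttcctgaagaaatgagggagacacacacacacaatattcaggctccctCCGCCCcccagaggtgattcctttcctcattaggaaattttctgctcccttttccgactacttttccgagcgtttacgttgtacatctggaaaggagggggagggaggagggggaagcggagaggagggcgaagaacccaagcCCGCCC
Sparc: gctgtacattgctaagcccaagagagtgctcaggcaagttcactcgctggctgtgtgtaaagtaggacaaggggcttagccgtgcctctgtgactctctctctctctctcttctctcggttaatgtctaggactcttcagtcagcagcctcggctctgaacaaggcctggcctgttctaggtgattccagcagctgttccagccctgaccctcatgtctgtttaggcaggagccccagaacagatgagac
Fbln2: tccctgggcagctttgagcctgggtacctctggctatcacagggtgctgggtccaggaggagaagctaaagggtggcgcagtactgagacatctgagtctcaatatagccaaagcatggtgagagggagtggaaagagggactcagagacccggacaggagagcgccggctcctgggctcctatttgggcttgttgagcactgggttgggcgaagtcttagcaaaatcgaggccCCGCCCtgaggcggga

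RefSeq promoters were matched for 31 of the 42 members, in 34 windows because some genes have more than 1 start site. A GC box stood in 64.7% of these windows, against 32.7% of all 32851 windows of the same length in the table. CCAAT, searched on both strands, stood in 35.3% of member windows against 33.8% of all, and TATAAA in 5.88% against 12.4%. These motifs do not overlap one another in letters, and a match describes the sequence and is not evidence of binding. Col4a1 and Col4a2, the main chains of type IV collagen, lie head to head on mouse chromosome 8, with start sites 21 bases apart. The stretch from one start site to the other (chr8:11312805-11312826, plus strand) holds 1 GC box. Col4a1 is read from the minus strand and Col4a2 from the plus strand, so these bases lie after both start sites. Unlike the promoters above, they are not bases before a start site. The stretch is shown because the levels of both genes are described side by side below.
Col4a1 and Col4a2: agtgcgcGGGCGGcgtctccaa

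The levels below are log2 intensities after background correction and quantile normalization. They are given in the order GSC 1 to GSC 4, then gPS 1 to gPS 3, then ESC 1 and ESC 2. Differences are group means subtracted on the log2 scale, with the standard error (SE) and the Benjamini-Hochberg adjusted p of limma's moderated test over all 9488 genes, and 0.05 was the threshold. Where a gene was not detected on arrays of the lower group, those arrays were set to the lowest detected signal of the array, or to their own value if higher, and the fold is given as at least N. Such a fold is a lower bound. Both comparisons with GSC use the same 4 GSC arrays, so they are not independent, and their values are set side by side only.

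In gPS against GSC, 56.3% of all genes tested passed, 25.6% higher and 30.8% lower in gPS. Of the 42 members, 42.9% passed: 10 were higher, 8 were lower and 24 did not pass. In ESC against GSC, 54.5% of all genes passed, 24.9% higher and 29.7% lower in ESC. There, 35.7% of the members passed: 10 were higher, 5 were lower and 27 did not pass. The count of lower members was 10 without GSC 4 and 2 without ESC 1. The members' median difference was -0.227 in gPS and -0.0964 in ESC, against -0.0666 and -0.108 over all genes. Both shares of members are below those of all genes, and which genes moved is described by role. Because the filter needs only 2 arrays, a member that passed it through a single group was selected for a higher level there. Col26a1, Itga2b and Lamb1 were detected in GSC only, so their lower calls are not independent of the filter. Outside GSC, Col2a1 was detected on ESC 1 only, so the same holds for its lower calls. Col17a1, Col23a1, Itgbl1, Lama2 and Lum were also detected in GSC only, and did not pass the test. On the GSC arrays the lowest detected log2 signal was 4.75 to 4.944, and on the gPS and ESC arrays 4.996 to 5.222. The same dim level could therefore count as detected on a GSC array and as undetected on a gPS or ESC array. This limits what detection in GSC only says about dim members such as Itga2b and Lama2. A lower level in a sample of many cells cannot be told apart from fewer cells that make the RNA.

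Median scaling in place of quantile normalization shifted the median of all genes to -0.389 in gPS and -0.425 in ESC. It gave 6 higher and 11 lower members in gPS and 7 higher and 10 lower in ESC. Over all genes the share of higher genes among those called then was 27.5% in both comparisons, against 45.4% for gPS and 45.6% for ESC with quantile normalization.

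**Figure D1:**
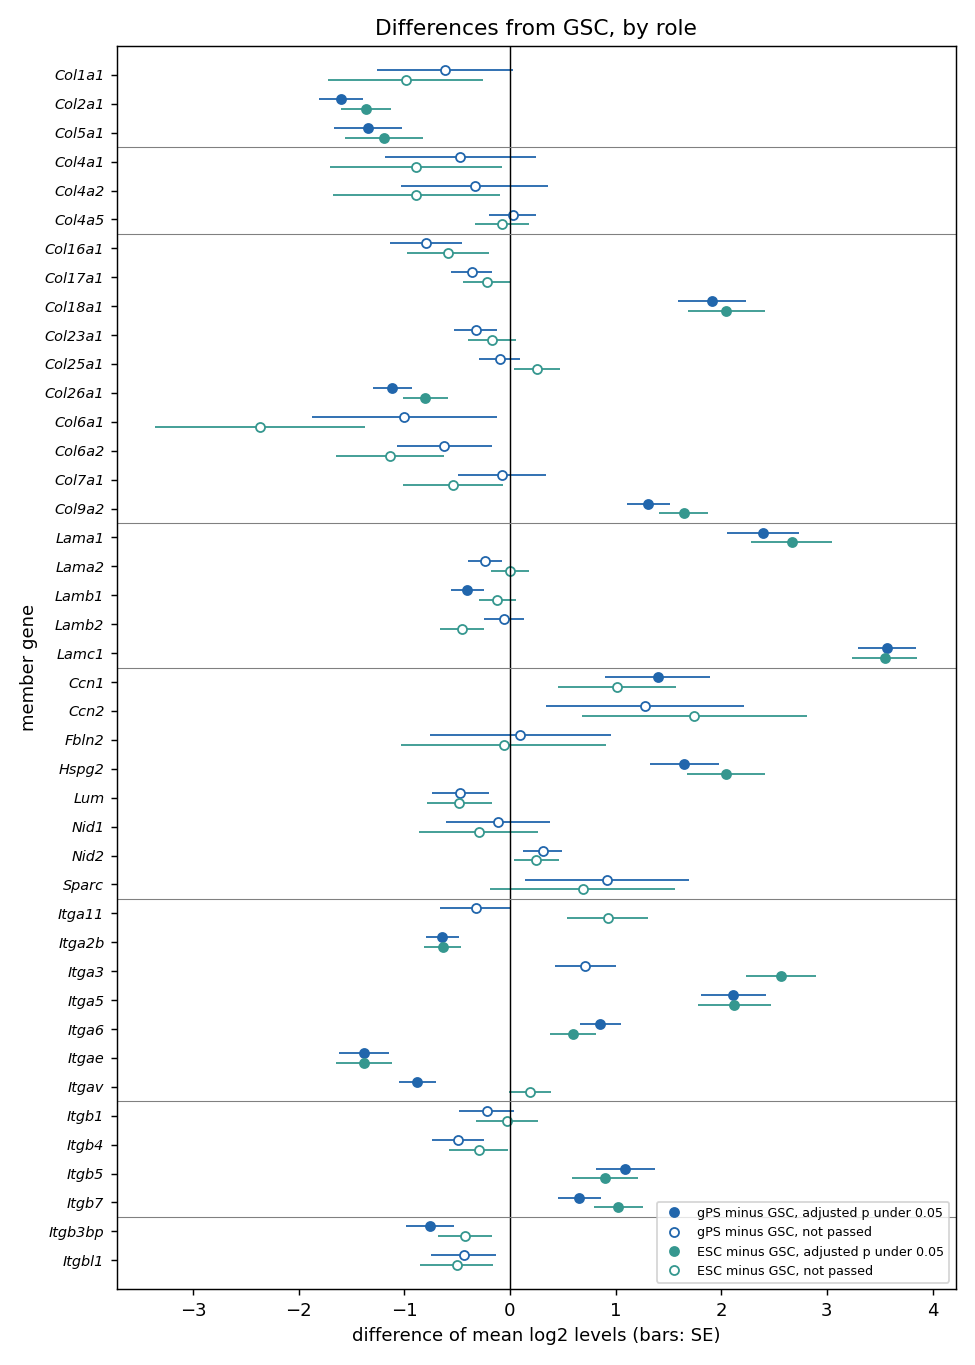
Difference from GSC of each of the 42 members on the log2 scale, for gPS and for ESC, with its standard error, grouped by role. Lamc1 and Lama1 lie furthest to the right among the laminins, and Col2a1 and Col5a1 lie to the left. Col4a1 and Col4a2 lie left of 0 with wide errors.

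The largest difference in the set was in Lamc1, the laminin gamma chain shared by most laminin trimers (probe ILMN_2974798). Its levels were 6.67, 6.62, 6.66 and 5.83 in GSC, 10.60, 9.84 and 9.61 in gPS, and 9.97 and 10.02 in ESC. Every gPS and ESC array lay more than 2 log2 units above every GSC array. The difference was 3.57 (SE 0.27, limma adjusted p = 1.98e-06), or 11.9-fold, for gPS and 3.55 (SE 0.31, limma adjusted p = 6.02e-06), or 11.7-fold, for ESC.

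Lama1, the alpha chain of the first laminin of the mouse embryo, moved in the same direction. Its levels were 5.30, 5.76 and 5.35 on GSC 1 to GSC 3 with no detection on GSC 4 (4.82), then 7.0, 8.61 and 7.5 in gPS, and 7.95 and 8.0 in ESC. The groups did not overlap, and gPS 2 was the highest array. Lama1 rose at least 5.14-fold in gPS (limma adjusted p = 0.000156) and at least 6.21-fold in ESC (limma adjusted p = 0.000202).

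The beta chains did not follow. Lamb2, a beta chain of adult basement membranes, was detected on all 9 arrays, at 6.37, 6.71, 6.56 and 6.68 in GSC, 6.86, 6.18 and 6.54 in gPS, and 6.06 and 6.19 in ESC. Neither of its differences, -0.06 and -0.45, passed the test. The probe for Lamb1, the beta chain that pairs with Lama1 and Lamc1, was at the limit of detection, at 4.79, 4.94, 4.60 and 4.53 in GSC, 4.32, 4.26 and 4.34 in gPS, and 4.48 and 4.71 in ESC. Only GSC 1 and GSC 2 detected it, so no fold is given. The gPS difference of -0.40 just passed (limma adjusted p = 0.0478), and it passed in only 5 of the 21 alternative analyses that tested the gene. Lama2, known from muscle and nerve, was detected only on GSC 1 and GSC 3, at 4.98 and 4.92.

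Among the linkers, Hspg2, which encodes perlecan, was higher in both pluripotent groups. Its levels were 8.21, 6.79, 7.79 and 7.92 in GSC, 9.82, 9.28 and 8.87 in gPS, and 9.63 and 9.81 in ESC. The groups did not overlap, with GSC 2 the lowest array. The difference was 1.65 (SE 0.32, limma adjusted p = 0.00137) in gPS and 2.04 (SE 0.37, limma adjusted p = 0.000847) in ESC. Nid2, a nidogen, was similar on all arrays, from 9.39 to 10.14, with differences of 0.31 and 0.25 that did not pass.

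Nid1, the other nidogen, spread widely among the GSC lines. It stood at 7.63, 6.06, 7.62 and 5.41 in GSC, at 6.54, 6.29 and 6.86 in gPS, and at 6.05 and 6.71 in ESC. The gPS and ESC arrays lay inside the GSC range, and the differences were -0.12 (SE 0.49) and -0.30 (SE 0.56).

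The same spread was seen in type IV collagen. Col4a1 stood at 9.03, 7.48, 8.85 and 5.38 in GSC, at 7.66, 7.26 and 6.73 in gPS, and at 7.08 and 6.51 in ESC. Col4a2 stood at 8.25, 6.64, 8.05 and 4.95 in GSC, at 7.39, 6.86 and 5.67 in gPS, and at 5.97 and 6.20 in ESC. Both chains were high on GSC 1 and GSC 3, intermediate on GSC 2 and lowest on GSC 4, with the pluripotent arrays in between. Their differences lay between -0.89 and -0.33 with SE of 0.70 to 0.81, and none passed. Without GSC 4, Col4a1 passed in gPS (-1.24, limma adjusted p = 0.0251) and in ESC (-1.66, limma adjusted p = 0.011), and Col4a2 passed in ESC (-1.56, limma adjusted p = 0.034). Col4a5, a chain of a more specialised type IV network, was detected only on GSC 1, GSC 3 and gPS 1, at 4.90 to 5.27.

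Col18a1, a basement membrane collagen that carries heparan sulfate and releases the fragment endostatin, was higher in both pluripotent groups. Its levels were 9.85, 9.43, 9.55 and 8.46 in GSC, 11.79, 10.89 and 11.03 in gPS, and 11.32 and 11.42 in ESC. All pluripotent arrays lay above all GSC arrays. The difference was 1.91 (SE 0.32, limma adjusted p = 0.000481) in gPS and 2.05 (SE 0.36, limma adjusted p = 0.000779) in ESC. A further pair of Col18a1 probes passed in the same direction in both comparisons.

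**Figure D2:**
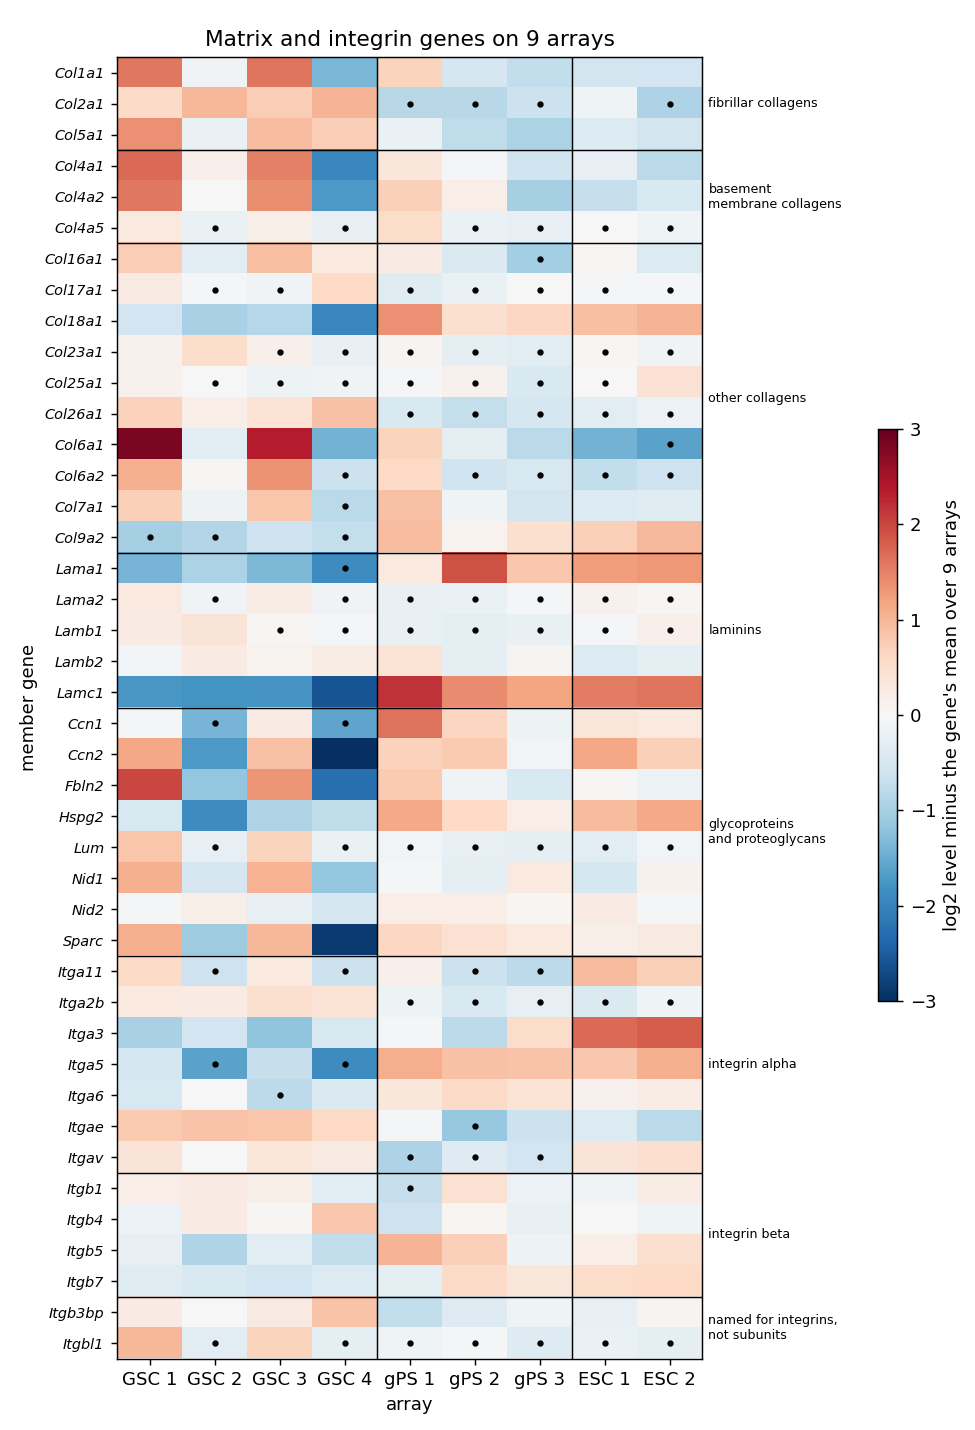
Deviation of each of the 42 members from its own mean over the 9 arrays, on the log2 scale, with arrays as columns and a dot where the gene was not detected. Lamc1, Lama1, Hspg2 and Col18a1 change colour between the GSC and the pluripotent arrays, while Col1a1, Col4a1, Col6a1, Sparc and Fbln2 are high on GSC 1 and GSC 3 and low on GSC 4.

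The fibrillar collagens were detected in part. Of 11 chains on the platform, 3 passed the detection filter, and 2 of these were lower in both pluripotent groups. Col5a1, a chain of type V collagen, which starts collagen fibres, stood at 9.84, 8.27, 9.38 and 9.21 in GSC, at 8.27, 7.71 and 7.52 in gPS, and at 8.05 and 7.92 in ESC. The groups did not overlap, although GSC 2 was only just above gPS 1. The difference was -1.34 (SE 0.32, limma adjusted p = 0.00477) in gPS and -1.19 (SE 0.37, limma adjusted p = 0.0182) in ESC. The ESC call did not pass without ESC 1, without ESC 2 or without GSC 1 and GSC 3.

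Col2a1, the main collagen of cartilage, stood at 6.06, 6.48, 6.22 and 6.49 in GSC. All 3 gPS arrays and ESC 2 failed to detect it, and ESC 1 read 5.35. The GSC lines lay close together and above all other arrays. It was at least 2.25-fold lower in gPS (limma adjusted p = 8.13e-05) and at least 2.11-fold lower in ESC (limma adjusted p = 0.000651). A second probe also passed in the same direction. On that probe gPS 1 was detected at 5.73, above GSC 3 at 5.61, so the gPS and GSC groups overlapped.

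Col1a1, a chain of type I collagen, the main collagen of connective tissue, stood at 8.31, 6.62, 8.33 and 5.36 in GSC, at 7.39, 6.22 and 6.0 in gPS, and at 6.18 and 6.15 in ESC. The gPS and ESC arrays lay inside the GSC range, and neither difference, -0.62 (SE 0.64) and -0.99 (SE 0.73), passed. Without GSC 4 the ESC difference was -1.58 and passed (limma adjusted p = 0.031). Col1a2 and Col3a1, partners of Col1a1 in connective tissue, were detected on GSC 1 only, at 5.10 and 4.86, and so fell outside the set.

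Of 20 collagens outside the fibrillar and type IV classes, 10 passed the detection filter, and 2 were higher and 1 lower in each comparison with GSC. Col18a1 is described above. Col9a2, a chain of the fibril-associated type IX collagen of cartilage, was detected in GSC on GSC 3 only (4.92), and stood at 6.45, 5.65 and 6.03 in gPS and at 6.25 and 6.51 in ESC. Every pluripotent array lay above the GSC arrays. The rise was at least 2.26-fold in gPS (limma adjusted p = 0.000294) and at least 2.85-fold in ESC (limma adjusted p = 0.000165).

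Col26a1, a collagen first described in testis and ovary, was lower in both. It stood at 5.63, 5.15, 5.37 and 5.83 in GSC and was detected on no gPS or ESC array. The fall was at least 1.28-fold in gPS (limma adjusted p = 0.000485) and at least 1.26-fold in ESC (limma adjusted p = 0.00837). The ESC call did not pass without ESC 1.

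Type VI collagen, which forms beaded microfibrils, followed the GSC lines. Col6a1 stood at 9.49, 6.35, 9.03 and 5.26 in GSC, at 7.34, 6.39 and 5.87 in gPS, and at 5.26 on ESC 1, with no detection on ESC 2. GSC 1 and GSC 3 were high and GSC 4 was at the level of ESC 1. The differences of -1.0 (SE 0.88) and -2.37 (SE 0.99) did not pass. Without GSC 4 the ESC differences of Col6a1 (-3.12, limma adjusted p = 0.008) and of Col6a2 (-1.50, limma adjusted p = 0.0143) passed. The other chains, Col7a1 of skin anchoring fibrils, Col16a1 and the transmembrane collagens Col17a1, Col23a1 and Col25a1, did not pass in either comparison.

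The matricellular genes encode secreted proteins that modify how cells meet the matrix. Sparc, which binds collagen, stood at 10.06, 7.91, 9.97 and 6.11 in GSC, at 9.60, 9.43 and 9.28 in gPS, and at 9.15 and 9.25 in ESC. Ccn2, a growth factor binding protein induced by YAP signalling, stood at 10.80, 7.92, 10.52 and 6.05 in GSC, at 10.32, 10.43 and 9.55 in gPS, and at 10.79 and 10.35 in ESC. For both genes the pluripotent arrays lay near GSC 1 and GSC 3 and well above GSC 2 and GSC 4. Neither gene passed, with gPS differences of 0.92 (SE 0.78) and 1.28 (SE 0.94) and ESC differences of 0.69 (SE 0.88) and 1.74 (SE 1.06).

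Fbln2, a fibulin of elastic fibres and basement membranes, stood at 10.21, 7.05, 9.54 and 5.94 in GSC, at 9.0, 8.10 and 7.75 in gPS, and at 8.24 and 8.02 in ESC. Its differences of 0.10 (SE 0.86) and -0.06 (SE 0.97) did not pass. Ccn1, a relative of Ccn2, was detected on GSC 1 (5.84) and GSC 3 (6.11) but not on GSC 2 or GSC 4, and stood at 7.5, 6.5 and 5.72 in gPS and at 6.22 and 6.15 in ESC. It was at least 2.20-fold higher in gPS (limma adjusted p = 0.0324), but gPS 3 lay below both detected GSC arrays. The call did not pass without GSC 2, GSC 4, gPS 1 or gPS 2, nor for the second probe of the gene (limma adjusted p = 0.0751). Lum, a proteoglycan of collagen fibres, was detected on GSC 1 and GSC 3 only, at 5.48 and 5.32.

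The spread among GSC lines was a property of a group of members. Their range over the 4 GSC arrays exceeded 2 log2 units in 8 of 42 members (19%), against 1.73% of all genes. These were Ccn2, Col1a1, Col4a1, Col4a2, Col6a1, Fbln2, Nid1 and Sparc. In all 8, GSC 1 and GSC 3 lay above GSC 2, and GSC 2 lay above GSC 4. That order held in 17 members (40.5%) and in 14.1% of all genes. Over all genes, 164 had a GSC range over 2, and 103 of these had that order, so it was common among widely ranging genes. No member had a range over 2 among the gPS or ESC arrays. None of the 8 passed in a comparison with GSC, and of the other 34 members 18 passed in gPS and 15 in ESC. The 8 were picked by their GSC range, and that spread enters the SE. Their lack of calls therefore follows in large part from the choice.

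Markers of fibroblasts, the cells best known for making these proteins, moved in the same order. Of 14 fibroblast genes tested, none of them a member, 13 had GSC 1 and GSC 3 above GSC 2 above GSC 4. Their mean log2 level was 8.13, 5.86, 8.05 and 5.13 in GSC, 6.66, 6.64 and 6.45 in gPS, and 6.40 and 6.23 in ESC. All 14 were detected on GSC 1 and GSC 3, 10 on GSC 2 and 8 on GSC 4. The pluripotent arrays detected 10 or 11. In gPS 1 of the 14 was higher than in GSC (Vim, by 2.25, limma adjusted p = 0.0341) and 2 were lower (Pdgfra and Twist1), and in ESC the same 2 were lower and the other 12 did not pass. Pdgfra, Prrx1 and Dpt were detected on no gPS or ESC array, and Twist1, Dcn, Thbs2, Vim, Cd248, Mgp, Lox, Loxl1 and Bgn on all of them. The lower calls of Pdgfra are therefore not independent of the detection filter. The proteoglycan gene Dcn stood at 10.32, 5.89, 10.18 and 5.72 in GSC. The part of fibroblasts in the members' levels was not tested.

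Among the other cell type lists, the means of the endoderm, endothelium and pluripotency lists had the same order among the GSC lines, over smaller ranges. So did the means of the collagen processing, matrix protease and other matrix receptor lists counted further below. The mean of 5 Sertoli genes lay between 5.62 and 6.0 on the GSC arrays and between 5.29 and 5.73 on the others. This mean joins genes that moved in opposite directions. In gPS 2 were higher (Clu and Trf) and 2 lower (Wt1 and Cldn11). In ESC the same 2 were lower and the other 3 did not pass. The mean of 5 smooth muscle genes lay between 4.81 and 5.58 in GSC and between 6.24 and 6.84 in gPS and ESC. In both comparisons 4 of them were higher. The other, Mylk, was detected on every GSC array and on no gPS or ESC array. It was at least 2.16-fold lower in gPS and at least 2.13-fold lower in ESC, and both differences passed. Mylk and Cldn11 were detected in GSC only, so their lower calls are not independent of the detection filter. The mean of 5 endoderm genes was 5.44 and 5.43 on GSC 1 and GSC 3, 4.84 and 4.79 on GSC 2 and GSC 4, and between 4.95 and 5.73 on the others. The macrophage gene Lyz2 stood at 9.69, 6.79, 9.86 and 8.53 in GSC and was at most 5.68 on the others. The other macrophage gene tested, Cd14, was detected on GSC 1 and GSC 4 only and did not pass. Of the endothelial list only 2 genes were tested, with means of 5.06, 4.98, 5.11 and 4.72 in GSC. The part of these cells in the members' levels was not tested either.

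With GSC 1 and GSC 3 left out together, a choice made after seeing the data, 13 members were higher and 8 lower in gPS. In ESC 14 were higher and 3 lower. Over all genes, 46.7% in gPS and 44.9% in ESC passed in that setting. Ccn2 then was higher by 3.11 in gPS and 3.58 in ESC, Sparc by 2.43 and 2.19, and Fbln2 by 1.79 and 1.63, all past the threshold. Nid1 then was 0.83 higher in gPS (limma adjusted p = 0.0462), and its ESC difference of 0.65 did not pass. Ccn2, Sparc, Fbln2 and Nid1 are all high on GSC 1 and GSC 3, so leaving these arrays out had to raise their differences. The calls for these genes therefore rested on which GSC lines entered.

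**Figure D3:**
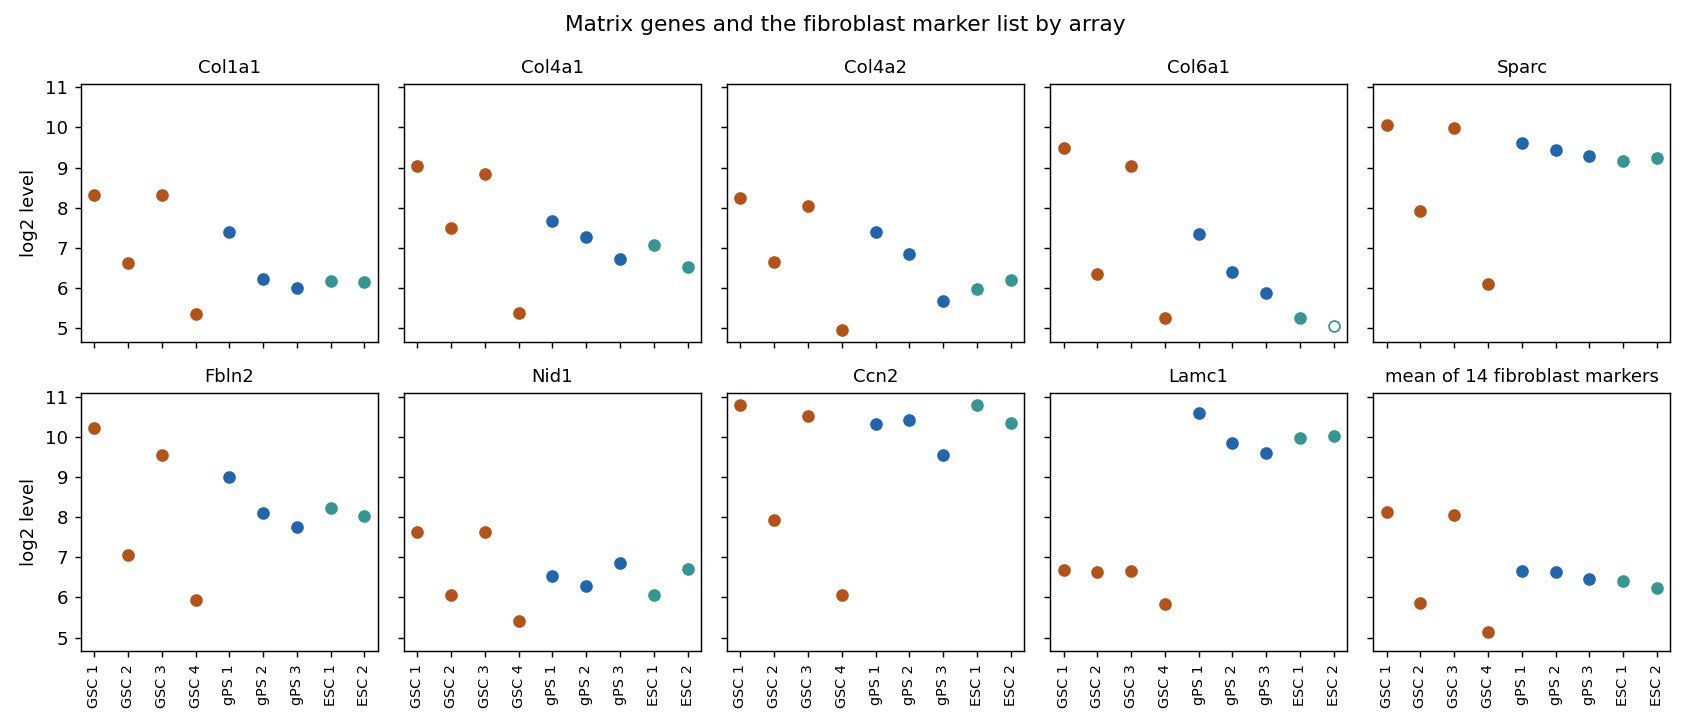
Log2 level of 9 members and the mean of 14 fibroblast markers on each of the 9 arrays, with open points where a gene was not detected. Among the GSC arrays, most panels are highest on GSC 1 and GSC 3 and lowest on GSC 4. The pluripotent arrays lie mostly in between, but for Col6a1 ESC 2 is below GSC 4. Lamc1, shown for contrast, steps up from GSC to gPS and ESC.

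The integrin alpha subunits, which give the receptor its ligand, moved both ways. Of 15 on the platform 7 passed the detection filter. In gPS, 2 were higher and 3 lower than in GSC, and in ESC 3 were higher and 2 lower. Itga5, the alpha subunit of the fibronectin receptor, stood at 5.87 on GSC 1 and 5.71 on GSC 3 and was not detected on GSC 2 or GSC 4. It stood at 7.49, 7.28 and 7.25 in gPS and at 7.21 and 7.49 in ESC, all above the GSC arrays. Itga5 rose at least 3.98-fold in gPS (limma adjusted p = 0.000179) and at least 4.00-fold in ESC (limma adjusted p = 0.000453), and its second probe also passed.

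Itga6, the laminin receptor subunit used to enrich spermatogonial stem cells, stood at 5.09, 5.59 and 5.15 on GSC 1, GSC 2 and GSC 4 and was not detected on GSC 3. It stood at 5.91, 6.15 and 5.98 in gPS and at 5.71 and 5.80 in ESC. All pluripotent arrays lay above all GSC arrays, by a small margin for ESC. The increase was at least 1.80-fold in gPS (limma adjusted p = 0.00308) and at least 1.5-fold in ESC (limma adjusted p = 0.0375). The ESC call did not pass without GSC 1, GSC 3, GSC 4, ESC 1 or ESC 2, and neither call passed with median scaling.

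Itgae, the subunit that pairs with Itgb7 to bind E-cadherin, was lower in both. It stood at 7.02, 7.09, 7.07 and 6.83 in GSC, at 6.18 on gPS 1 and 5.59 on gPS 3 with no detection on gPS 2, and at 5.81 and 5.42 in ESC. The GSC lines lay close together above all others. It was at least 2.53-fold lower in gPS (limma adjusted p = 0.00055) and differed by -1.38 (SE 0.27, limma adjusted p = 0.00135) in ESC, with a second probe in the same direction. Itga2b, the platelet subunit, was dim, at 4.90 to 5.13 in GSC, and was detected on no gPS or ESC array. Its differences of -0.64 passed in both comparisons (limma adjusted p = 0.00492 and 0.0105), but the signal was too close to background for a fold. The ESC call for Itga2b did not pass without ESC 1.

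In gPS against ESC, 1.03% of all genes passed, 0.422% higher and 0.611% lower in gPS. Of the 42 members 2 were lower in gPS, both integrin alpha subunits, and 0 were higher by limma, also at an unadjusted p under 0.05. At that unadjusted level 3 of the 42 members were lower, against 1472 of all 9488 genes in either direction, which is a larger share. Itga3, a laminin receptor subunit, stood at 5.47, 5.86, 5.25 and 5.96 in GSC, at 6.41, 5.65 and 6.99 in gPS, and at 8.15 and 8.26 in ESC. The ESC arrays lay above all others, and the gPS lines lay between them and GSC or within the GSC range. Itga3 was 2.57 higher in ESC than in GSC (SE 0.33, limma adjusted p = 9.09e-05). The gPS lines were 1.85 lower than ESC, a difference of -1.85 (SE 0.35, limma adjusted p = 0.0348), and their difference of 0.71 from GSC did not pass (SE 0.29, limma adjusted p = 0.0574).

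Itgav, the subunit of several receptors for vitronectin and fibronectin, was detected on every GSC and ESC array and on no gPS array. It stood at 5.85, 5.46, 5.83 and 5.74 in GSC and at 5.85 and 5.98 in ESC. Its undetected gPS values were 4.55, 5.09 and 4.89. It was at least 1.49-fold lower in gPS than in GSC (limma adjusted p = 0.00159) and at least 1.71-fold lower than in ESC (limma adjusted p = 0.0417). The ESC difference from GSC was 0.19 and did not pass. Both differences from ESC were fragile: Itga3 passed in 7 of 22 alternative analyses and Itgav in 4 of 21. Both calls ended when GSC 1, GSC 2, GSC 3, gPS 1, ESC 1 or ESC 2 was left out, that for Itga3 also without gPS 2, and that for Itgav also without gPS 3. With ESC measured as a duplicate, the spread between ESC cultures may be missing from both. Itga11, a collagen receptor subunit, was the third member with an unadjusted p under 0.05, at 5.39 on gPS 1 with no detection on the other gPS arrays, and at 6.19 and 5.94 in ESC (difference -1.25, limma adjusted p = 0.178).

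**Figure D4:**
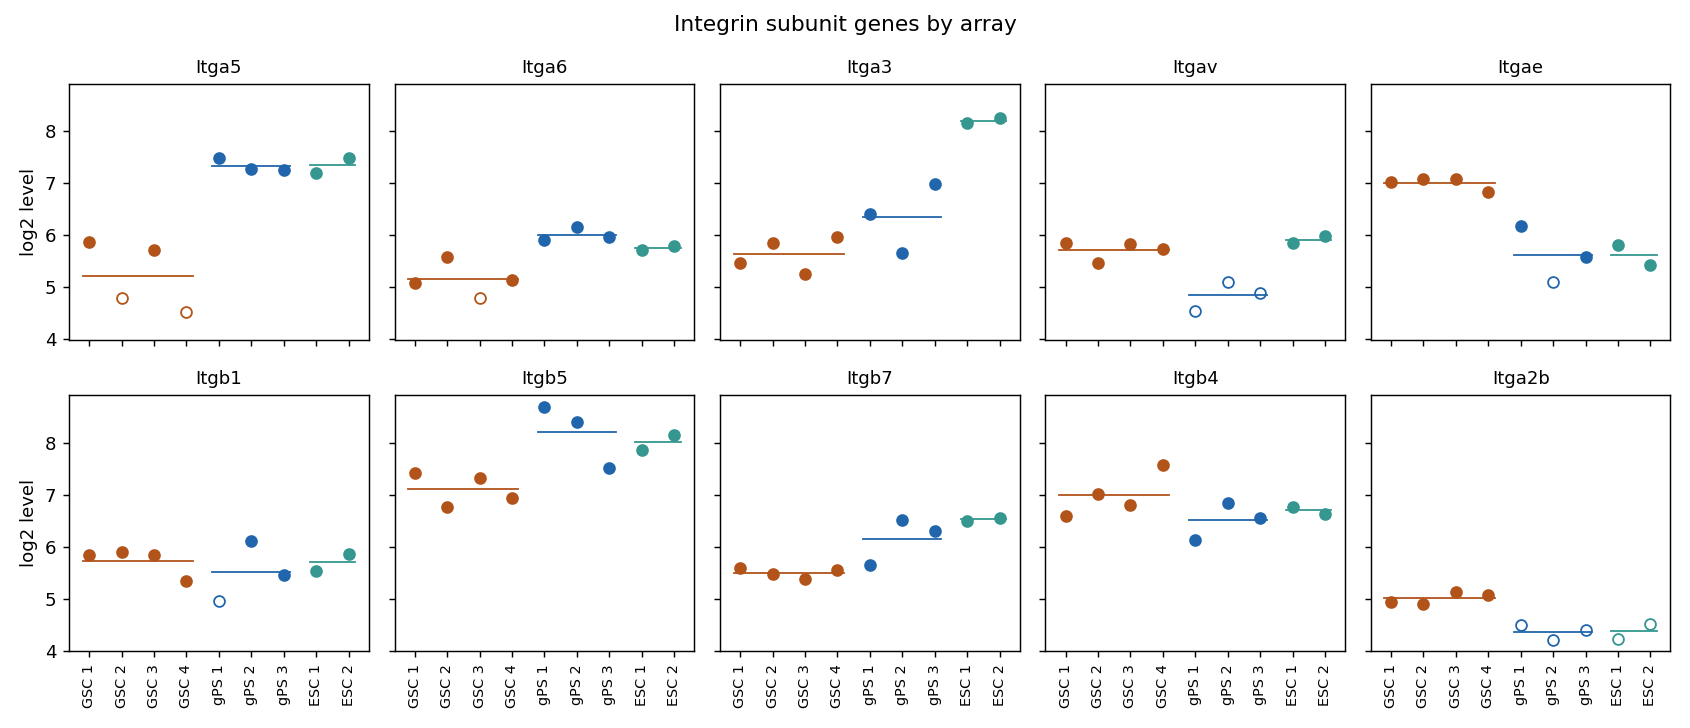
Log2 level of 10 integrin genes on each array, with horizontal lines at the group means and open points where the gene was not detected. Itga5 steps up in both pluripotent groups, Itgae steps down, Itga3 is highest on the ESC arrays and Itgav is undetected on the gPS arrays.

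Of 9 beta subunits 4 passed the detection filter, and 2 of them were higher in both comparisons. Itgb5, the partner of Itgav in a vitronectin receptor, stood at 7.42, 6.76, 7.32 and 6.93 in GSC, at 8.69, 8.39 and 7.51 in gPS, and at 7.86 and 8.14 in ESC. The groups did not overlap, with gPS 3 close to GSC 1. The difference was 1.09 (SE 0.28, limma adjusted p = 0.00635) in gPS and 0.90 (SE 0.31, limma adjusted p = 0.0319) in ESC. The ESC call did not pass without GSC 2, GSC 4, ESC 1 or ESC 2, and neither call passed with median scaling.

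Itgb7, a subunit of lymphocyte integrins, stood at 5.59, 5.48, 5.38 and 5.55 in GSC, at 5.65, 6.52 and 6.29 in gPS, and at 6.5 and 6.55 in ESC. The gPS 1 array was barely above GSC, and the other pluripotent arrays were clearly above. The difference was 0.66 (SE 0.20, limma adjusted p = 0.0175) in gPS and 1.03 (SE 0.23, limma adjusted p = 0.00326) in ESC. The gPS call did not pass without gPS 2 or gPS 3, and neither call passed with median scaling.

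Itgb1, the partner of most alpha subunits, stood at 5.85, 5.90, 5.83 and 5.34 in GSC, at 6.12 on gPS 2 and 5.46 on gPS 3 with no detection on gPS 1, and at 5.54 and 5.86 in ESC. The groups overlapped, and the differences of -0.22 (SE 0.26) and -0.03 (SE 0.30) did not pass. Itgb4, the partner of Itga6 in hemidesmosomes, did not pass with its brighter probe (-0.49 and -0.30). Its second probe, at 5.72 to 6.13 in GSC and undetected in ESC, was at least 1.67-fold lower in ESC (limma adjusted p = 0.00326). Both probes were lower in both pluripotent groups, and only this ESC difference passed.

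A further pair of genes entered by name without being subunits. Itgb3bp, a centromere protein, stood at 7.29, 7.07, 7.33 and 7.90 in GSC, at 6.32, 6.67 and 6.93 in gPS, and at 6.81 and 7.13 in ESC. It was lower in gPS by a difference of -0.76 (SE 0.23, limma adjusted p = 0.0149), which did not pass without gPS 1. The ESC difference was -0.42 and did not pass. Itgbl1, an integrin-like secreted protein, was detected on GSC 1 and GSC 3 only, at 5.62 and 5.29.

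Just inside the detection filter stood 7 members seen on exactly 2 arrays, Col17a1, Col23a1, Col25a1, Itgbl1, Lama2, Lamb1 and Lum, whose highest levels were 4.94 to 5.62. Just outside stood Col11a1, Col1a2, Col3a1 and Col24a1, seen on 1 array, with highest levels of 4.84 to 5.10. The remaining 33 names were detected on no array.

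Genes that make, cut or read the matrix were counted from 4 further lists. Of 19 enzymes and helpers of collagen processing, 5 were higher and 3 lower in gPS, and 4 higher and 4 lower in ESC. Pcolce2, which enhances procollagen cleavage, rose at least 7.45-fold in gPS and at least 17-fold in ESC, and its relative Pcolce was at least 6.34-fold higher in gPS. Of 21 matrix proteases and inhibitors, 5 were higher and 5 lower in gPS, and 3 higher and 3 lower in ESC. The protease Adam19 was higher by 2.26 and 2.49 and the inhibitor Timp1 by 1.79 and 1.82, while the membrane inhibitor Reck was at least 3.04-fold lower in gPS.

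Of 17 genes of the integrin adhesion complex, 6 were higher and 4 lower in gPS, and 5 higher and 3 lower in ESC. Actn4, an actin crosslinker, was higher by 2.21 and 2.44, and Csk, a kinase that restrains Src, differed by -1.03 and -1.41. Fermt1, an integrin activator, was at least 2.18-fold higher in gPS than in GSC and at least 1.76-fold higher than in ESC. It was the only gene of the 4 lists to pass in gPS against ESC. Fermt1 was detected on the gPS arrays only, so these calls are not independent of the detection filter. Of 17 matrix receptors other than integrins, 4 were higher and 3 lower in gPS, and 5 higher and 3 lower in ESC. The laminin receptor gene Bcam rose at least 3.23-fold in gPS and at least 3.63-fold in ESC, and the glypican gene Gpc1 was higher by 1.96 and 1.91. The syndecan gene Sdc4 differed by -1.17 and -1.53, and Ddr1, a collagen receptor, by -1.60 in gPS. Between 28.6% and 58.8% of each list passed in a comparison with GSC, against 56.3% and 54.5% of all genes.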

How the data were processed

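Per the labels' protocols, biotin-labelled cRNA was made from total RNA, with 1 array per sample. The deposited values are an intensity per probe and array, not normalized between arrays, and each has a detection p-value, per the file headers. A second deposited table holds values taken as log2 (median 2.99, maximum 14.5 on every array). BeadStudio 3.2, RMA and lumi are named in the submitters' processing notes.

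Intensities were processed with neqc (limma 3.58.1, R 4.3.3; offset 16, with detection p-values standing in for negative controls), which corrects background, quantile-normalizes and takes log2. Probes with detection p below 0.01 on at least 2 of 9 arrays were kept (12695 of 25697). Platform symbols named 23978 probes. The probe with the highest mean represented a gene, which gave 9488 genes, 738 of them unnamed. All 9 arrays entered 1 limma model with a mean for each group. Its p-values measure the spread between these samples. The fit was tested on simulated data.

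Members, gene lists and tests were chosen with earlier results of these data known. All members passing the filter may be named. Array values are given for called members with the 4 largest rises or falls of their class and for a fixed list of matrix genes. Each companion list gives at most its 2 largest rises and falls per comparison. Values of other members were chosen after they were seen. Promoters are from RefSeq.

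Alternatives covered background correction, normalization, the detection filter, probe choice, the samples fitted, an intensity trend, the replicate number as a block, averaged or omitted arrays and a 2-fold minimum.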

Additional observations from a re-analysis of the deposited data

Results flagged for a closer look

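Among the 42 members, the 4 GSC arrays were examined for a single array far from the others, and 2 members had one. Chance alone gives about 1 in 20. In both it was GSC 4. Lamc1 was 5.83 on GSC 4 and 6.62 to 6.67 on the other GSC arrays. Itgb1 was 5.34 on GSC 4 and 5.83 to 5.90 on the others. The calls for Lamc1 passed in all 22 alternative analyses, those without GSC 4 among them.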

How the results depend on the processing

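Of the calls against GSC, 12 of 18 in gPS and 9 of 15 in ESC passed in every alternative that tested the gene. Lamc1, Lama1, Hspg2, Col18a1, Col9a2, Itga5, Col2a1 and Itgae were among them in both. The 12 in gPS also hold Col26a1 and Itga2b, which passed the detection filter through GSC only. Col2a1, called in both comparisons, likewise needed its GSC arrays to pass that filter. The count higher in gPS was 10, and fell to 6 with median scaling and to 5 with only genes detected on all 9 arrays. The count lower in gPS was 8, and was 3 with that filter and 4 with a 2-fold minimum. The count higher in ESC was 10, and 6 with that filter, which leaves 19 members to test. The count lower in ESC was 5. It was 10 with median scaling, 2 with that filter, 3 with a 2-fold minimum, 2 with the ESC arrays averaged, 3 without GSC 1 and GSC 3, and 9 with the replicate block. The replicate numbers share only a number (correlations of same-numbered deviations 0.0781, -0.0687 and -0.159 for GSC and gPS). Only GSC 4 has the replicate number 4, so the block in effect leaves GSC 4 out of the differences. The Col4a1 difference in gPS, for example, was -1.24 under the block and also without GSC 4. Under the replicate block 9 members were higher and 11 lower in gPS, 8 higher in ESC, and 0 differed between gPS and ESC. Leaving out 1 array at a time gave 9 to 10 higher and 7 to 9 lower members in gPS, and 8 to 11 higher and 2 to 10 lower in ESC (10 without GSC 4, 2 without ESC 1). The 2 members lower in gPS than in ESC became 1 with no background correction, an offset of 50, no detection filter, detection on all 9 arrays or an intensity trend. They became 0 with the authors' processed values, median scaling, a fit of only the compared groups, ESC arrays averaged, or GSC 1 and GSC 3 averaged or left out, and 0 to 2 without single arrays. The count higher in gPS than ESC was 0 in all of these. With GSC 1 and GSC 3 left out, Nid1 turned to 0.83 in gPS and Fbln2 to 1.63 in ESC. Apart from that filter, whose smaller number of genes lowers the counts, the causes were not tested. Signal near background limits the members seen on 2 arrays.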
